A study of Mus musculus with 15 samples.

Results

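The genes described here make, move and break down the monoamines dopamine, noradrenaline and serotonin. They are Th, Ddc, Gch1, Slc18a2, Slc6a3, Slc6a4, Slc6a2, Maoa and Maob. Each is represented by the array row annotated with that symbol alone. The rule found 9 of the 9 genes among 22180 named genes on the arrays, with 1 row each. The members were listed by function, with earlier results of these data known. All 9 passed the filter that left the dimmest 25% of genes (mean log2 signal under 5.07 over 15 arrays) out of the tests. Slc6a2 and Gch1, with means of 5.09 and 5.11 over the 15 arrays, were the closest to it.

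RNA from sorted cells of embryonic mouse thalamus was measured on 15 Affymetrix arrays, with 3 biological replicates in each of 5 groups. The groups were E18.5 double-labelled, E18.5 red and E18.5 green cells, and E14.5 red and E14.5 green cells. All embryos had the genotype Gbx2CreER-IRES-EGFP/+::R26lsl-tdTomato/+ on a c57/BL6 background. One Gbx2 allele therefore carried both the tamoxifen-dependent Cre recombinase and the green fluorescent protein, and the Rosa26 locus carried a red reporter that Cre switches on for good. A dose of 4 mg tamoxifen was given to the pregnant females, at E9 where embryos were taken at E18.5 and at E9.5 where they were taken at E14.5. By the design of these alleles, green marks cells that make EGFP from the Gbx2 locus, red marks cells descended from those with active Cre after tamoxifen, and double-labelled cells carry both. The labels give neither the sorting gates nor the number of embryos per array, and every group carries the same alleles. In bulk samples of this kind, fewer cells of a type and less RNA per cell cannot be told apart.

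Tyrosine hydroxylase (Th) makes L-DOPA from tyrosine, and aromatic L-amino acid decarboxylase (Ddc) turns L-DOPA into dopamine and 5-hydroxytryptophan into serotonin. GTP cyclohydrolase (Gch1) opens the synthesis of tetrahydrobiopterin, the cofactor that Th and the tryptophan hydroxylases need. The vesicular transporter VMAT2 (Slc18a2) loads monoamines into vesicles, and the plasma membrane transporters for dopamine (Slc6a3), serotonin (Slc6a4) and noradrenaline (Slc6a2) take them back up. Monoamine oxidases A and B (Maoa, Maob) break them down on the outer mitochondrial membrane. Glutamatergic neurons of the rodent sensory thalamus are known to hold Slc6a4 and Slc18a2 for a time around birth, and so to take up serotonin that they do not make.

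Promoter sequences of 4 members are shown because these are the genes that passed the adjusted threshold between sorted populations of 1 stage. They come from RefSeq (GRCm38.p6), which held windows for 7 of the 9 members and 2 windows for Ddc. Each runs 5′ to 3′ on the gene's own strand, from 250 bases before the annotated start to 10 bases after it. Th lies on the minus strand at chr7:142899986-142900245, the upstream window of Ddc on the minus strand at chr11:11898135-11898394, Slc18a2 on the plus strand at chr19:59260628-59260887 and Slc6a3 on the plus strand at chr13:73536497-73536756. Capitals mark matches to a cyclic AMP response element (CRE, TGACGTCA) or to the monomer site of the Nr4a nuclear receptors (NBRE, AAAGGTCA, here on the opposite strand).
Th: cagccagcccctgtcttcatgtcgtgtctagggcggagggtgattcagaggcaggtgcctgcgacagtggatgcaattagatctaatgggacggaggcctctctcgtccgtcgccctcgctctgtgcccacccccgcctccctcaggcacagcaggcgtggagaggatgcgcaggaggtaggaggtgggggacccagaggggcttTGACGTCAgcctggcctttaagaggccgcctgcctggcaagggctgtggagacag
Ddc: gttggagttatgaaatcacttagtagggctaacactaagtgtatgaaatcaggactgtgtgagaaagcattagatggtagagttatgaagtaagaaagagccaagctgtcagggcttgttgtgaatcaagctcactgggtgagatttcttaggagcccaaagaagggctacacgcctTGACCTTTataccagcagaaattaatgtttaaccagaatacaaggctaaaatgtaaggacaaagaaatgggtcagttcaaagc
Slc18a2: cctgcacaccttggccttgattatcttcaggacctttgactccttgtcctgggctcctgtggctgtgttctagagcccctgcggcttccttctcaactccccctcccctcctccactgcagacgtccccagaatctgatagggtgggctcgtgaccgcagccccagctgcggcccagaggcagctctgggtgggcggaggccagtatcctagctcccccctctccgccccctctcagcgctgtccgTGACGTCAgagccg
Slc6a3: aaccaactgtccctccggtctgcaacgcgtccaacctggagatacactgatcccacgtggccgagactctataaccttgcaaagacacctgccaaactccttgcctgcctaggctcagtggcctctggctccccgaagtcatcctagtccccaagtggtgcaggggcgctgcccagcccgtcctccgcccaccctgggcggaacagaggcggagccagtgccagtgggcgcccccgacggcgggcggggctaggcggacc
The CRE letters stood at bases -45 to -38 of Th and -4 to 4 of Slc18a2, and the NBRE letters at -73 to -66 of Ddc, counted from the annotated start. Both strands of the full windows of 300 bases were searched. The CRE was in 2 of 8 member windows and in 1.79% of all 32851 windows. The NBRE was in 1 of 8 and in 1.51% of all windows. A FOXA core (TGTTTAC) was in 0 of 8 and in 3.65% of all windows. The other Ddc window, on the minus strand at chr11:11890359-11890658, is not shown and held none of the searched motifs. Which Ddc start these cells used was not tested. The searched motifs do not overlap one another in these windows. No other data here bear on binding at these bases.

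Values are log2 signals as deposited, and groups are given as mean ± SD of 3 arrays. All differences were tested with limma's moderated test, two-sided, with p adjusted by Benjamini and Hochberg over 16635 genes and a threshold of 0.05. The SD of all values was 1.34 on E18.5 red replicate 1 and 1.31 on E18.5 double-labelled replicate 1, against 1.44 to 1.51 on the other E18.5 arrays. The mean of all values was 6.17 to 6.19 on E18.5 arrays and 5.63 to 5.65 on E14.5 arrays, so that levels set side by side across stages carry this offset. The array signal has no true zero and no detection call was used, so a low value is not absence.

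Th separated E18.5 red cells from every other group. It read 6.29, 6.36 and 6.33 in the 3 E18.5 double-labelled samples, 8.13, 8.16 and 7.85 in the E18.5 red samples and 5.98, 5.93 and 6.19 in the E18.5 green samples. At E14.5 it read 5.14, 5.11 and 5.01 in red samples and 5.16, 5.09 and 5.08 in green samples. All 3 E18.5 red arrays lay above all others, the double-labelled arrays lay just above the green ones with no overlap, and the E14.5 populations overlapped. Th was 3.29-fold lower in double-labelled cells than in red ones at E18.5 (log2 difference -1.72, 95% interval -1.95 to -1.49, adjusted p 3.8e-06), and 4.03-fold higher in red than in green cells (2.01, 1.78 to 2.24, adjusted p 4.7e-07). Between double-labelled and green cells the difference was 0.29 (0.06 to 0.52) and did not pass the threshold (adjusted p 0.755). The Th call against red cells was lost when only the double-labelled and red arrays were fitted (adjusted p 0.103).

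Ddc had the same order with smaller differences. It read 5.65, 5.97 and 5.77 in E18.5 double-labelled samples, 6.50, 6.84 and 6.36 in E18.5 red samples and 5.60, 5.72 and 5.75 in E18.5 green samples. The red arrays again lay above the others, while double-labelled and green overlapped. Ddc was 1.70-fold lower in double-labelled cells than in red ones (log2 difference -0.77, -1.05 to -0.49, adjusted p 0.048) and 1.84-fold higher in red than in green cells (0.88, 0.59 to 1.16, adjusted p 0.0064). The call against double-labelled cells stood close to the threshold. It was kept without red replicate 3 and lost without double-labelled replicates 1, 2 and 3 (adjusted p 0.082, 0.064 and 0.181) or red replicates 1 and 2 (0.070 and 0.096). It was also lost with no filter on dim genes (adjusted p 0.052), with only the E18.5 arrays (0.495) and with only the arrays of the 2 populations (1.0), and it stood in 7 of 17 settings. The call for red against green cells was lost when only the E18.5 arrays (adjusted p 0.115) or only those of the 2 populations (0.170) were fitted.

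Gch1, which feeds the cofactor to Th, differed less. It read 5.39, 5.40 and 5.10 in E18.5 double-labelled samples, 5.61, 5.65 and 5.44 in E18.5 red samples and 5.40, 5.26 and 5.15 in E18.5 green samples. Each red array was above each double-labelled and each green array. The log2 differences were -0.27 for double-labelled minus red and 0.30 for red minus green, and neither passed the threshold (adjusted p 1.0 and 0.394).

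**Figure D1:**
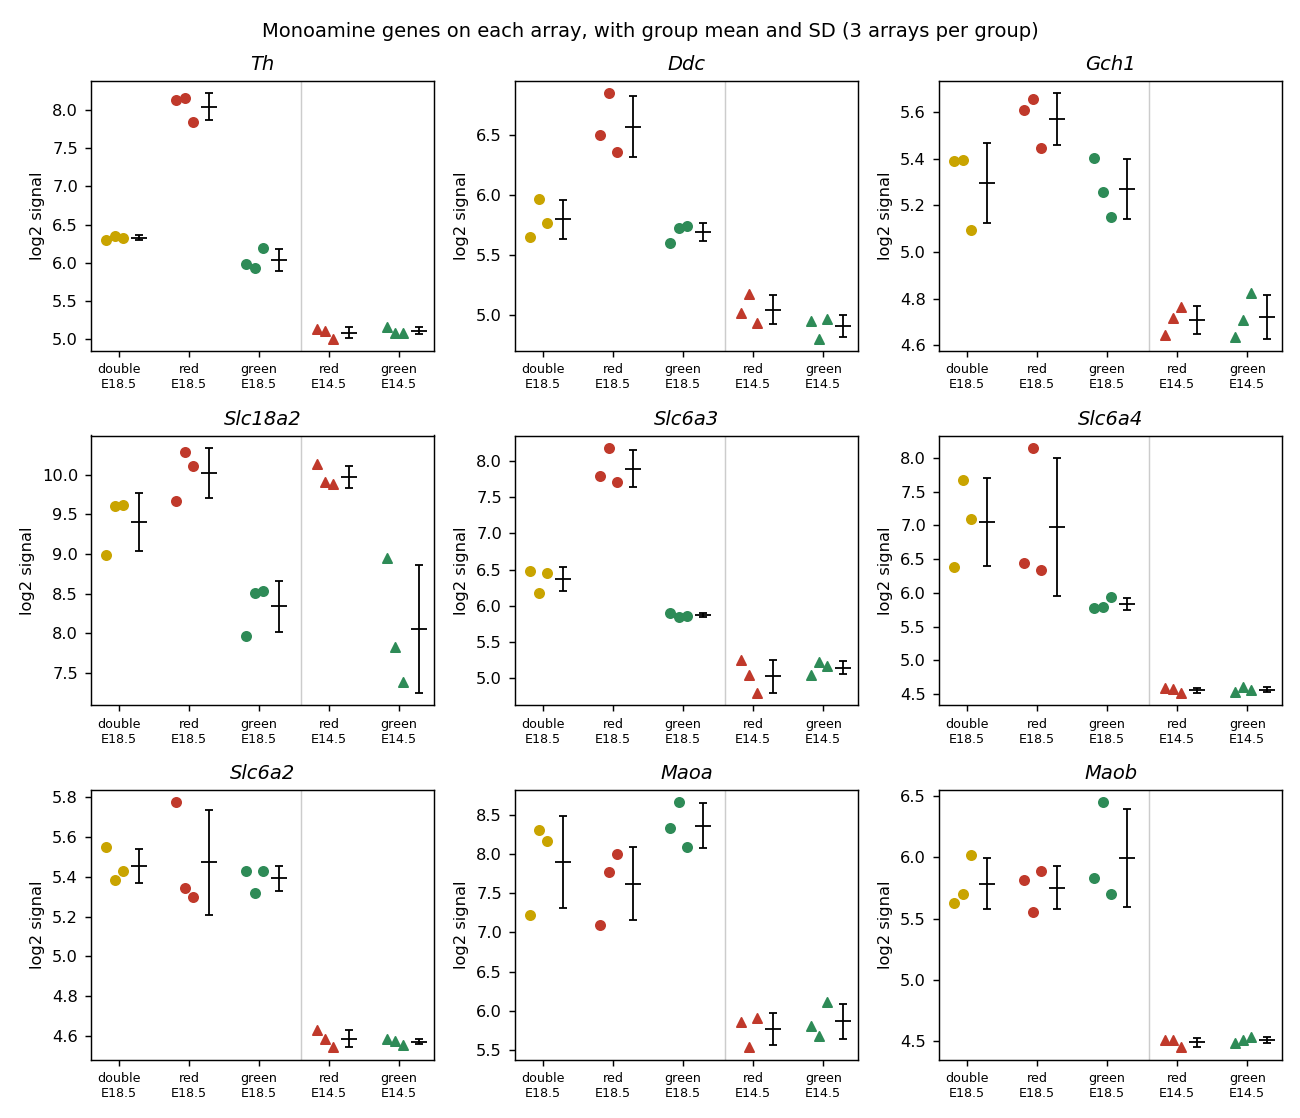
Log2 signal of the 9 monoamine genes (1 panel each) on every array, by group from E18.5 double-labelled to E14.5 green. Points are single arrays, short horizontal marks are group means and vertical lines are the SD, with 3 arrays per group. Th and Slc6a3 are highest in E18.5 red cells, and Slc18a2 is higher in red than in green cells at both stages. Values are as deposited and carry the offset between stages. In every panel but that of Slc18a2, E18.5 arrays lie above the E14.5 arrays of the same colour.

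The vesicular transporter Slc18a2 was higher in red than in green cells at both stages. It read 8.98, 9.61 and 9.62 in E18.5 double-labelled samples, 9.67, 10.29 and 10.11 in E18.5 red samples and 7.97, 8.51 and 8.54 in E18.5 green samples. At E14.5 it read 10.14, 9.91 and 9.88 in red samples and 8.95, 7.82 and 7.39 in green samples. No red array at either stage overlapped the green arrays of its stage, and replicate 1 was the lowest of each E18.5 population. At E18.5 the red cells were 3.21-fold higher than green cells (log2 difference 1.68, 0.996 to 2.37, adjusted p 0.026), and at E14.5 they were 3.78-fold higher (1.92, 1.23 to 2.61, adjusted p 0.0034). The E18.5 call was kept without red replicate 1 and lost without green replicates 1, 2 and 3 (adjusted p 0.142, 0.089 and 0.073) or red replicates 2 and 3 (0.096 and 0.074). It was also lost when only the E18.5 arrays (adjusted p 0.063) or only those of the 2 populations (0.110) were fitted. The E18.5 call stood in 9 of 17 settings, and limma with the replicate block gave an adjusted p of 0.0014. The E14.5 call was kept without each of its arrays in turn, with differences of 1.59 to 2.37. Double-labelled cells stood between the other E18.5 populations, with log2 differences of -0.62 against red (-1.31 to 0.07, adjusted p 1.0) and 1.07 against green (0.38 to 1.75, adjusted p 0.549). With the replicate block neither passed (adjusted p 0.411 and 0.076).

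The dopamine transporter Slc6a3 followed Th. It read 6.48, 6.17 and 6.45 in E18.5 double-labelled samples, 7.79, 8.18 and 7.71 in E18.5 red samples and 5.90, 5.85 and 5.86 in E18.5 green samples. At E14.5 it read 5.25, 5.04 and 4.79 in red samples and 5.05, 5.22 and 5.16 in green samples. The 3 E18.5 populations did not overlap, with red highest, while the E14.5 populations did. Slc6a3 was 2.88-fold lower in double-labelled cells than in red ones (log2 difference -1.53, -1.84 to -1.22, adjusted p 2.0e-04) and 4.08-fold higher in red than in green cells (2.03, 1.72 to 2.34, adjusted p 1.1e-05). The difference of 0.50 between double-labelled and green cells (0.19 to 0.81) did not pass the threshold (adjusted p 0.544). The call for double-labelled against red cells was lost when only those arrays were fitted (adjusted p 0.227).

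The serotonin transporter Slc6a4 varied widely among the arrays of E18.5 double-labelled (SD 0.65) and E18.5 red cells (SD 1.02). It read 6.38, 7.68 and 7.09 in E18.5 double-labelled samples, 6.44, 8.15 and 6.34 in E18.5 red samples and 5.78, 5.79 and 5.94 in E18.5 green samples. At E14.5 it read 4.59, 4.57 and 4.52 in red samples and 4.53, 4.61 and 4.56 in green samples. Every double-labelled and every red array at E18.5 lay above every green array, and replicate 2 was the highest of both. The double-labelled mean was 2.33-fold above green (log2 difference 1.22, 0.40 to 2.04, adjusted p 0.611) and the red mean 2.21-fold above green (1.14, 0.32 to 1.96, adjusted p 0.315), and neither passed the threshold. Without replicate 2 of both populations these differences were 0.90 and 0.56 (adjusted p 0.193 and 0.183). Double-labelled and red cells differed by 0.07, with an interval of -0.75 to 0.90 that holds differences of either sign.

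The noradrenaline transporter Slc6a2 showed no separation of the colours. At E18.5 it averaged 5.45 ± 0.08 in double-labelled cells, 5.47 ± 0.26 in red cells and 5.39 ± 0.06 in green cells, and all 3 overlapped. The largest of its 3 differences at that stage was 0.08, and none passed the threshold.

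Maoa, whose enzyme prefers serotonin and noradrenaline, had its lowest E18.5 mean in red and its highest in green cells. It read 7.22, 8.30 and 8.16 in E18.5 double-labelled samples, 7.10, 7.77 and 7.996 in E18.5 red samples and 8.33, 8.66 and 8.09 in E18.5 green samples. Every red array was below every green one, while double-labelled arrays overlapped both. Red minus green was -0.74 (-1.33 to -0.14), which did not pass the threshold (adjusted p 0.392). Maob averaged 5.78 ± 0.21 in double-labelled, 5.75 ± 0.18 in red and 5.99 ± 0.40 in green cells at E18.5, with overlapping arrays.

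Counted over the 9 genes, 3 were lower and 0 higher in double-labelled than in red cells at E18.5, where 0.0902% of all genes tested were called, 0.024% higher and 0.0661% lower. Groups did not overlap for 5 of the 9, against 4.18% of all genes, and the median log2 difference was -0.27 over the members and 0.02 over all genes. In red against green cells of that stage, 4 were higher and 0 lower, where 0.613% of all genes were called, 0.265% higher and 0.349% lower. Here the groups did not overlap for 7 of the 9, against 15.3% of all genes, and the medians were 0.88 over the members and -0.01 over all genes. Between double-labelled and green cells, limma called 0 of the 9, with 4 at an unadjusted p under 0.05, and 0.0361% of all genes were called, 0.024% higher and 0.012% lower. With array weights 4 of the 9 were called there. The share of all genes called with array weights is not given here, so 0.0361% is no background for that count. Groups did not overlap for 4 of the 9 genes, against 8.15% of all genes. The 3 comparisons share arrays, so their counts are not independent.

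At E14.5, Slc18a2 was the 1 member called between red and green cells, where 3.52% of all genes were called, 1.89% higher and 1.64% lower. The other 8 members differed by -0.12 to 0.14, none past the threshold. Groups did not overlap for 1 of the 9, against 27.9% of all genes. The median difference was -0.01 over the members and 0.00 over all genes. Among markers of other cells at E14.5, 1 of 2 erythroid genes (list median 0.87) and 2 of 14 hypothalamic, zona incerta and prethalamic genes were higher in red cells, and of 11 genes of astrocytes and radial glia 1 was higher and 2 were lower. Of 10 thalamic markers 1 was higher and 2 were lower, with 7 at an unadjusted p under 0.05 in limma's test. Of 16 markers of midbrain dopamine neurons 1 was higher and 2 were lower, with 5 at that level. Their part in the Slc18a2 difference was not tested.

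**Figure D2:**
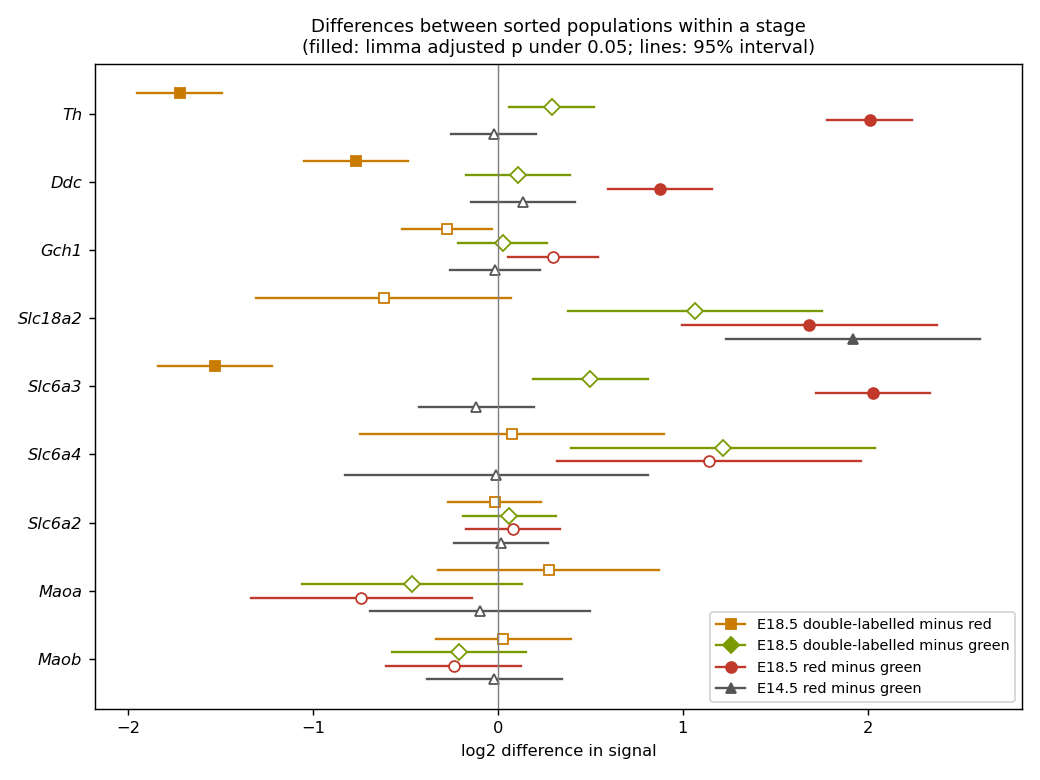
Log2 differences between sorted populations within a stage (horizontal axis) for the 9 genes (rows), with limma's 95% intervals. Filled symbols passed an adjusted p of 0.05. Th, Ddc and Slc6a3 pass for double-labelled minus red and for red minus green at E18.5, and Slc18a2 passes for red minus green at both stages.

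Of a wider list of 27 genes of monoamine metabolism, 22 were on the arrays under a single symbol and 17 were bright enough to test. The list adds tryptophan hydroxylases, cofactor recycling, other carriers, and aldehyde and conjugating enzymes. Among them Aldh1a1, an aldehyde dehydrogenase that acts on retinaldehyde and on the dopamine aldehyde, was called within E18.5. It averaged 6.60 ± 0.21 in double-labelled cells, 8.99 ± 0.44 in red cells and 6.49 ± 0.28 in green cells. Double-labelled and red cells differed by -2.39 (adjusted p 7.0e-05), red and green by 2.51 (adjusted p 2.2e-05). The other 16 passed in none of the 3 E18.5 comparisons. At E14.5 the dihydropteridine reductase Qdpr, which regenerates tetrahydrobiopterin, was lower in red than in green cells (6.03 ± 0.06 against 6.59 ± 0.10, difference -0.56, adjusted p 0.031). The serotonin-making Tph2 (means 4.97 in double-labelled, 5.02 in red and 4.92 in green cells at E18.5) and the noradrenaline-making Dbh (5.16 in each) were among 5 listed genes too dim to test.

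Markers of other cells that make or carry monoamines moved with Th and Slc6a3 in part. Of 16 markers of midbrain dopamine neurons, 5 were higher and 0 lower in red than in green cells at E18.5, with a median of 0.39 against -0.01 over all genes. They were Aldh1a1 (2.51), the nicotinic subunits Chrnb3 (1.65) and Chrna6 (0.81), the nuclear receptor Nr4a2 (1.26) and the forkhead factor Foxa1 (1.18). Aldh1a1 also counts in the wider list. The mean of the 16 lay between 6.01 and 6.22 in the double-labelled arrays, 6.46 and 6.87 in the red arrays and 6.00 and 6.07 in the green arrays. Of the 16, 11 had an unadjusted p under 0.05 in limma's test, against 1666 of the 16635 genes tested. Other defining factors of those neurons did not pass the adjusted threshold. Pitx3 averaged 6.16 ± 0.39 in double-labelled, 6.14 ± 0.24 in red and 6.01 ± 0.10 in green cells, Lmx1a averaged 5.72 ± 0.46, 6.13 ± 0.40 and 5.53 ± 0.21 in the same order of groups, and En1 averaged 5.37 ± 0.15, 6.31 ± 0.74 and 5.44 ± 0.10. Between double-labelled and red cells Aldh1a1, Chrnb3 (-1.64) and Nr4a2 (-1.13) were lower and 0 were higher. Whether cells of that kind were sorted with the red population was not tested.

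Of the serotonergic markers 0 of 7 tested were called between the red and the green population at E18.5, and of the noradrenergic ones 0 of 2, with 1 and 0 at an unadjusted p under 0.05. The mean of the serotonergic list ranged from 5.63 to 5.87 in double-labelled, 5.70 to 6.08 in red and 5.62 to 5.73 in green arrays. Of 14 hypothalamic, zona incerta and prethalamic markers, Sp9 was higher in red cells (0.88), and of 10 habenular markers Nr4a2 was. Of 10 thalamic markers the Wnt effector Lef1 was higher (0.82), while Gbx2 (-2.07), the LIM-homeodomain factor Lhx9 (-0.99) and the calcium-binding protein Calb2 (-2.41) were lower. At an unadjusted p under 0.05 were 4 of the 14 hypothalamic, zona incerta and prethalamic markers, 1 of the 10 habenular and 9 of the 10 thalamic ones. The mean of the thalamic list was 9.07 to 9.38 in double-labelled, 8.61 to 8.89 in red and 9.41 to 9.56 in green arrays. Tcf7l2, a transcription factor found across the thalamus, averaged 11.92 ± 0.13 in double-labelled, 11.55 ± 0.22 in red and 12.00 ± 0.06 in green cells. A Gbx2 difference is built into a sort on EGFP driven by that gene. In the lists for astrocytes and radial glia, microglia, the oligodendrocyte lineage, vessels (endothelium and pericytes) and erythroid cells, 0 of 11, 7, 5, 7 and 2 tested genes were called, with 1, 0, 2, 1 and 0 at an unadjusted p under 0.05. The part of these markers in the member differences was not tested.

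Over the 9 E18.5 arrays, the genes whose signal was most like that of Th were Inpp4b (Pearson r 0.982, Spearman rho 0.767), Slc6a3 (0.981 and 0.917) and Rora (0.976 and 0.950). For Slc6a3 they were Th, Inpp4b (0.970 and 0.817) and Foxa1 (0.966 and 0.933), and for Ddc they were Th (0.957 and 0.917), Hs6st3 (0.957 and 0.917) and Gfra1 (0.956 and 0.983). Slc18a2 was most like Parvb (0.952 and 0.833), Irf2bp2 (0.946 and 0.883) and Zdhhc22 (0.942 and 0.933), none of which is on the lists of the other 3. Th and Slc18a2 had a Pearson r of 0.80, Slc18a2 and Slc6a4 0.76, Th and Slc6a4 0.44, and Th and Maoa -0.57. These are descriptions over 9 arrays that fall into 3 sorted populations and share their normalization, so a high r mostly restates which population is highest.

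**Figure D3:**
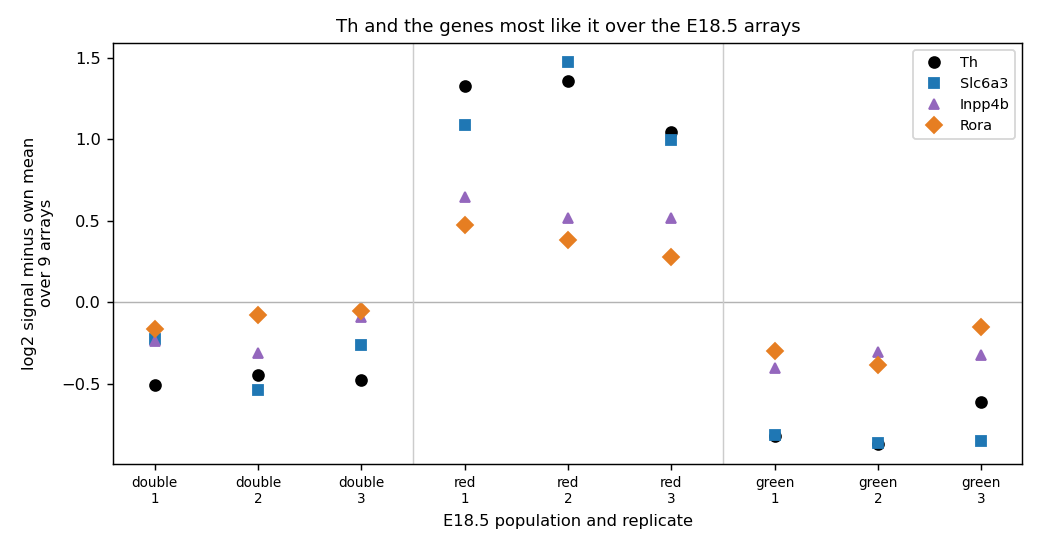
Log2 signal minus each gene's own mean over the 9 E18.5 arrays (vertical axis) for Th and the 3 genes most like it, by population and replicate. Each point is 1 array. All 4 genes lie above their mean in the red arrays and below it in the double-labelled and green arrays.

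The stages were compared after each array's median over the tested genes was subtracted, because the deposited values of all tested genes differed between stages by a median of 0.60 in red and 0.61 in green cells. After this the median of all genes between stages was -0.05 for red and -0.09 for green. Stage, the day of tamoxifen and any separate normalization of the stages cannot be told apart. In red cells 6 of the 9 genes were higher at E18.5 than at E14.5 and 0 lower, where 23.2% of all genes were called, 9.9% higher and 13.3% lower. They were Th (log2 difference 2.31, 2.07 to 2.55, adjusted p 2.9e-08), Slc6a3 (2.22, 1.89 to 2.55, adjusted p 3.7e-07), Slc6a4 (1.77, 0.99 to 2.54, adjusted p 0.0029), Maoa (1.20, 0.64 to 1.76, adjusted p 0.0043), Ddc (0.87, 0.60 to 1.14, adjusted p 2.6e-04) and Maob (0.61, 0.24 to 0.98, adjusted p 0.020). Without E18.5 red replicate 2 the Slc6a4 difference was 1.20. The Maob call was lost without E18.5 red replicate 3, E14.5 red replicate 1 or E14.5 red replicate 3 (adjusted p 0.073, 0.052 and 0.066). Slc18a2 differed by -0.60 (-1.27 to 0.06), Gch1 by 0.21 and Slc6a2 by 0.24, and none of these passed. Slc6a2 was called in 3 of 16 settings, after quantile normalization (adjusted p 0.015), with centring by level (0.032) and as deposited (2.7e-05). Gch1 was called in 1 of 16, as deposited (2.5e-05).

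The E14.5 values of the other members lay close together. Ddc read 5.02, 5.18 and 4.94 in E14.5 red samples and 4.96, 4.81 and 4.97 in E14.5 green samples. Maoa read 5.86, 5.53 and 5.91 in E14.5 red samples and 5.81, 5.68 and 6.12 in E14.5 green samples. The colours overlapped for both genes. Gch1 averaged 4.71 ± 0.06 in red and 4.72 ± 0.09 in green cells at that stage, Slc6a2 averaged 4.59 ± 0.04 in red and 4.57 ± 0.01 in green cells, and Maob averaged 4.49 ± 0.04 in red and 4.51 ± 0.02 in green cells.

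In green cells 2 of the 9 were higher at E18.5 and 0 lower, where 33.1% of all genes were called, 13% higher and 20.1% lower. Both degrade monoamines. Maoa averaged 8.36 ± 0.29 in E18.5 green and 5.87 ± 0.23 in E14.5 green cells as deposited, and the centred difference was 1.79 (1.24 to 2.35, adjusted p 1.1e-04). Maob averaged 5.99 ± 0.40 and 4.51 ± 0.02 in those groups, with a centred difference of 0.79 (0.41 to 1.16, adjusted p 0.0030). Th (0.23), Slc6a3 (0.03), Ddc (0.08) and Slc6a4 (0.57) did not pass in green cells. Slc6a4 was called there in 4 of 16 settings, with green arrays alone (adjusted p 6.0e-04), without both E18.5 replicate 2 arrays of red and double-labelled cells (0.0077), with array weights (0.035) and as deposited (0.0089). Th was also called in 4 of 16, with no filter on dim genes (adjusted p 0.028), with array weights (0.012), with centring by level (0.035) and as deposited (6.5e-06). For Slc6a2 (0.13) it was 3 of 16, after quantile normalization (adjusted p 0.013), with centring by level (0.026) and as deposited (4.2e-05). Deposited groups did not overlap for 8 of the 9 genes in red cells, against 73.1% of all genes, and for 8 of the 9 in green cells, against 85.5%.

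**Figure D4:**
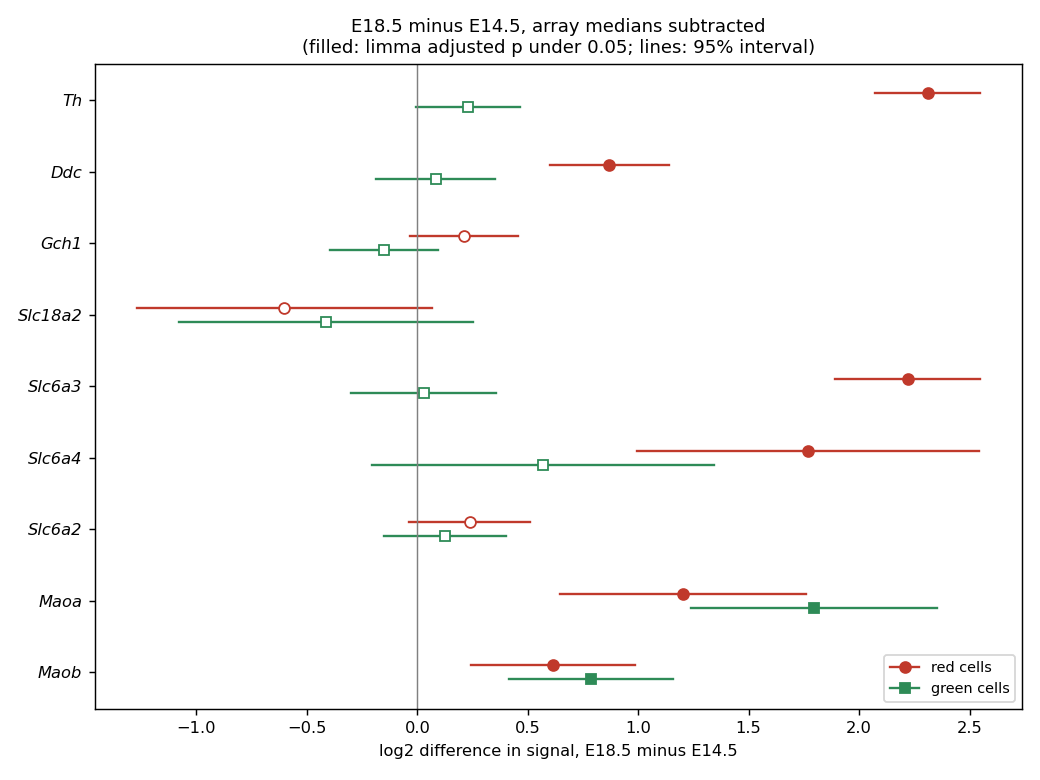
Log2 differences between E18.5 and E14.5 after centring of each array, in red and in green cells, for the 9 genes (rows), with limma's 95% intervals. Filled symbols passed an adjusted p of 0.05. Th, Slc6a3, Slc6a4 and Ddc pass in red cells alone, while Maoa and Maob pass in both red and green cells.

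The change between stages of the red-green difference was tested directly. It passed for Th (log2 difference of differences 2.03, 1.71 to 2.36, adjusted p 4.0e-05) and Slc6a3 (2.14, 1.71 to 2.58, adjusted p 1.7e-04), 2 of the 9 genes where 1.05% of all genes were called, 0.547% higher and 0.505% lower. For Ddc it was 0.74 (adjusted p 0.081) and for Slc6a4 1.15 (-0.01 to 2.31, adjusted p 0.564). For Slc18a2 it was -0.24 with an interval of -1.21 to 0.74, so that larger and smaller red-green differences at E18.5 both lie within it. Of the 16 dopamine markers 4 had a higher red-green difference at E18.5, among them Aldh1a1 (2.45), Chrnb3 (1.70) and Foxa1 (1.91), and Drd2, the D2 dopamine receptor, had a lower one (-1.74). At E14.5 Drd2 was higher in red than in green cells (0.95) and Otx2 (-1.63) and Foxa1 (-0.73) were lower. Of the wider pathway list, 4 genes were higher and 1 lower at E18.5 in red cells, and 4 were higher and 2 lower in green cells. These 5 and 6 of 17 genes tested stand beside 23.2% and 33.1% called over all genes, so the counts show nothing particular to the list. Sepiapterin reductase (Spr), which finishes tetrahydrobiopterin synthesis, rose by 1.13 in red and 1.33 in green cells, and histamine N-methyltransferase (Hnmt) by 0.46 and 0.56. The sulfotransferase Sult1a1 differed by -0.55 in both and turned to 0.10 and 0.14 in the values as deposited.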

How the data were processed

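RNA from FACS-sorted cells of 15 thalamic samples was measured on Affymetrix arrays. Per the labels' protocols, RNA was extracted with the RNeasy mini kit, and 10 ng went into the Nugen Ovation Pico WTA System V2. The authors deposited 1 log2 signal per transcript cluster and array, made in Affymetrix Expression Console per the submitters' processing notes. Its version and algorithm are not given in the sources used here. Array number limits the precision, and no depth applies.

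Of 33794 rows, 23521 named 1 gene, 1814 several and 8459 none. The row with the highest mean stood for each of 22180 genes, of which 21994 matched RefSeq by Entrez identifier. The 16635 genes above the lowest 25% were tested in R 4.3.3 with limma 3.58.1, in a group-means model over 15 arrays with 10 residual degrees of freedom (13.9 moderated). Stages were compared after subtraction of array medians. Figures were drawn with Python 3.11.15 and matplotlib 3.10.9.

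The members, the wider pathway list and the marker lists were chosen with earlier results of these data known. The rule named every member, up to 4 called genes per list and comparison, the 3 most alike genes of each member called within E18.5, and Gbx2. After the values were seen, naming was narrowed to all lists in E18.5 red against green, to the wider and dopamine lists within stages and for the stage difference, and to the wider list between stages. Pitx3, Lmx1a, En1, Tcf7l2, Tph2 and Dbh were named after their values were seen. The labels call the replicates biological and give no shared litter or day, so p-values measure the spread between these samples. Deviations of same-numbered arrays from their group means correlated at 0.669, 0.496 and 0.487 between E18.5 double-labelled and red arrays. Between green arrays and either of these at E18.5 they correlated at 0.047 to 0.465, with 1 of 3 numbers under 0.1 in each pair of groups. At E14.5 they correlated at 0.069 to 0.265. The main model held no pairing of arrays, and the replicate block was fitted as another setting. Settings tried were another normalization, centring, filter, variance model, row rule, array weights, smaller fits, the replicate block and arrays left out in turn. Leaving out both replicate 2 arrays of E18.5 red and double-labelled cells, and centring by level, were added after seeing the data. The model was also run on simulated data, with independent noise on each array and shifts in the E18.5 red arrays alone. Those data did not carry the correlations between same-numbered arrays, so they cannot show how the model behaves under them.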

Additional observations from a re-analysis of the deposited data

Results flagged for a closer look

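For 2 members the difference between red and green cells itself differed between stages in limma's test of the interaction. For Th the change was 2.03 (log2), with red minus green at 2.01 at E18.5 and -0.02 at E14.5. For Slc6a3 it was 2.14, with red minus green at 2.03 at E18.5 and -0.12 at E14.5. All 3 E18.5 red arrays exceeded all E18.5 green arrays for both genes, while the E14.5 colours overlapped. Both calls held in every setting tried, but stage, the day of tamoxifen and any separate normalization of the stages cannot be told apart.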

How the results depend on the processing

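Of 18 member differences called, 12 were called in every one of the settings run for them, 6 were lost in at least 1, and 0 changed sign. Of 45 that were not called, 19 changed sign at least once and 14 were called in at least 1 setting. For double-labelled minus red, 0 members were called when only the arrays of these groups were fitted, with Th at adjusted p 0.103 and Slc6a3 at 0.227. For double-labelled minus green, 4 were called with array weights. For E18.5 red minus green, 2 were called with only the arrays compared and 2 with only the E18.5 arrays, Ddc and Slc18a2 being lost. Between stages in green cells, 4 were called after centring by level, 4 with array weights and 8 in the values as deposited, and Slc6a4 and Th were each gained in 4 settings. The deposited values of all tested genes carry a median offset of 0.61 between stages in green cells. Outside the replicate block, the share of all genes called is not given for the settings in this paragraph. These counts therefore show nothing particular to the members. The counts with 1 array left out were 2 to 3 for double-labelled minus red, 3 to 4 for E18.5 red minus green and 5 to 6 between stages in red cells. The replicate block changed no member call. It called 3 members for double-labelled minus red, where it called 32 of all 16635 genes against 15 in the main model. For E18.5 red minus green it called 4 members, where it called 234 of all genes against 102 in the main model. The cause of the changes between settings was not tested.

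The member differences that turned sign were not called as reported, and of the turned values Gch1 between stages in green cells, as deposited, passed the threshold (adjusted p 7.5e-04). With array weights, Slc6a2 turned to 0.075 for double-labelled minus red, -0.049 for E18.5 red minus green and -0.082 for the stage difference, Gch1 to -0.14 and Maob to 0.090 for double-labelled minus green, and Slc6a4 to 0.0028 and Th to 3.4e-05 at E14.5. After quantile normalization, Slc6a2 turned to 0.0049 for double-labelled minus red and -0.0038 at E14.5, and Gch1 to -0.023 for double-labelled minus green and 0.018 between stages in green cells. Without the 2 arrays of narrow range, Slc6a2 turned to 0.086 for double-labelled minus red, -0.071 for red minus green and -0.087 for the stage difference, and Gch1 to -0.024 for double-labelled minus green. Without both replicate 2 arrays, Gch1 turned to -0.026 there and Maob to -0.029 for double-labelled minus red, which was -0.00028 with array medians subtracted. Centring by level gave 0.013 for Gch1 between stages in green cells. In the values as deposited, Gch1 was 0.55 and Slc18a2 0.28 in green cells, Slc18a2 was 0.048 in red cells, and Sult1a1 was 0.098 in red and 0.142 in green cells.

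With 1 array left out at a time, further differences turned sign. For double-labelled minus red they ran from -0.242 to 0.661 for Slc6a4, -0.105 to 0.133 for Slc6a2 and -0.089 to 0.106 for Maob, and for double-labelled minus green from -0.0355 to 0.124 for Gch1 and -0.359 to 0.0169 for Maob. For E18.5 red minus green Slc6a2 ran from -0.0709 to 0.167. At E14.5 the ranges were -0.0579 to 0.0354 for Gch1, -0.00653 to 0.038 for Slc6a2, -0.194 to 0.0269 for Maoa, -0.027 to 0.013 for Slc6a4, -0.0482 to 0.0172 for Th and -0.0313 to 0.000938 for Maob. Between stages in green cells they were -0.0195 to 0.071 for Slc6a3 and -0.748 to 0.0354 for Slc18a2, and for the stage difference -0.685 to 0.0984 for Slc18a2, -0.0867 to 0.151 for Slc6a2 and -0.369 to 0.00719 for Maob.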
